A study of Mus musculus with 6 samples.

Results

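The resident macrophage genes of skeletal muscle were read here as a set of 9 named genes, Folr2, Lyve1, Cd163, Mrc1, F13a1, Cbr2, Stab1, Gas6 and Maf, taken by gene symbol from a table of 17030 genes. All 9 were in the table and all 9 passed the filter on low values. The data are RNA-seq values of the mononuclear cell fraction of skeletal muscle from 6 male mice of strain C57BL/B6. All bore Lewis lung carcinoma (LLC), a transplantable tumour that causes muscle wasting. In 3 mice the genotype was Pax7 Cre ErT x IKKbfl/fl, written Pax7-CreERT below: Cre recombinase that tamoxifen switches on, driven by Pax7, a gene of muscle satellite cells, together with floxed alleles of the NF-kB kinase IKKb. The other 3, the controls, were IKKbfl/fl without Cre. Tamoxifen was given to all 6 between days 10 and 14 of tumour growth, so every difference given here is between tumour-bearing mice, and Cre without floxed alleles was not part of the comparison. The mice's ages are not given in the sources used here. Values with Cre and in the controls are listed for replicates 1, 2 and 3 in that order. Cre under Pax7 acts in satellite cells, and macrophages are not of that lineage. The comparison thus asks how macrophage transcripts stand in muscle whose satellite cells were targeted for deletion of IKKb. The deletion itself was not examined here.

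Muscle holds macrophages that live around blood vessels and in the connective tissue sheaths, separate from the monocytes that enter from the blood. They are scavengers: they take up haemoglobin complexes, hyaluronan, modified proteins and dying cells through surface receptors, and they are known by a shared set of transcripts for these receptors and for a few secreted proteins. Of the genes described here, Cd163 encodes the receptor for haptoglobin-haemoglobin complexes, Mrc1 the mannose receptor CD206, Stab1 the scavenger receptor stabilin-1, Lyve1 a hyaluronan receptor and Folr2 the folate receptor beta. F13a1 encodes the catalytic subunit of clotting factor XIII, Cbr2 a carbonyl reductase, Gas6 the secreted bridging ligand of the TAM receptors that bind dying cells, and Maf the transcription factor c-Maf. Several are not unique to macrophages: Lyve1 also marks lymphatic endothelium, Stab1 occurs in endothelium, and Gas6 is made by stromal and vascular cells.

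Promoter sequences are shown for 4 of the genes that stood high in the same libraries, as described below. The RefSeq promoter table of GRCm38.p6, the assembly that mm10 names, held 7 of the 9 genes; Lyve1 and Maf were not in it. Each sequence is the 250 bases before the transcription start on the gene's own strand, read 5′ to 3′. Capitals mark matches on either strand to GAGGAA, a purine-rich core bound by the myeloid factor PU.1, and to TGCTGA, the half-site core of Maf factors; no match to one overlapped a match to the other.
Mrc1 (chr2:14229164-14229413, plus strand): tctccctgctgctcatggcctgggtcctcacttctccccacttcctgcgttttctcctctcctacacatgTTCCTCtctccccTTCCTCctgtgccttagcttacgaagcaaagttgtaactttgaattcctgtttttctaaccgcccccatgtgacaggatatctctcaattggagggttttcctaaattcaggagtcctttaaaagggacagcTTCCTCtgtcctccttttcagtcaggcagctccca
F13a1 (chr13:37050245-37050494, minus strand): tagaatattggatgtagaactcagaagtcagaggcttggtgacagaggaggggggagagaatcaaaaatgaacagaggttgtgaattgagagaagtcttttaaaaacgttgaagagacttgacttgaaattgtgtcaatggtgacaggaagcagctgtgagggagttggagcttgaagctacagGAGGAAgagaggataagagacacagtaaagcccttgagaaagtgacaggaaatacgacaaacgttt
Cbr2 (chr11:120732022-120732271, minus strand): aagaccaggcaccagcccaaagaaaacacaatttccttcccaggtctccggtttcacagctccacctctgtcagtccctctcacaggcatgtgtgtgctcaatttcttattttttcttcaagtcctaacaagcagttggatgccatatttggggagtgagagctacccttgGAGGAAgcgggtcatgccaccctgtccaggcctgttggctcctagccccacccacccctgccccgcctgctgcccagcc
Cd163 (chr6:124304401-124304650, plus strand): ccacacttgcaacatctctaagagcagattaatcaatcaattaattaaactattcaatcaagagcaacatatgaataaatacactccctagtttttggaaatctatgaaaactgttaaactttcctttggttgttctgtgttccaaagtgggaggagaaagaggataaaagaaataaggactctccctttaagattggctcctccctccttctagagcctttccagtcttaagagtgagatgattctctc
The Mrc1 window held 3 GAGGAA matches, which begin 180, 167 and 35 bases before the start. All lie on the opposite strand, so they read TTCCTC in the sequence shown. F13a1 held 1 match that begins 66 bases before the start and Cbr2 1 that begins 79 bases before it. The Cd163 window held neither motif. The window of Folr2, which shared the high libraries but is not shown, held no GAGGAA match and 1 TGCTGA match. Over the 7 genes, 4 windows held GAGGAA, against 23.3% of all 32851 windows of the same length, and 2 windows (Folr2 and Stab1) held TGCTGA, against 16.1%. These are matches of letters and do not show binding.

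Depth and library quality bear on all of the values. The deposited unit is CPM, a gene's reads per 1000000 assigned, and the assigned reads estimated from the steps between low values were 4054000 to 13355000 per library, which gives a counting SD of 8.65% to 15.7% for a gene at 10 CPM. Control replicate 3 was the shallowest library and the one with most haemoglobin RNA, 12.6% of its CPM against 1.84% to 4.83% in the other 5. Lymphocyte markers were also uneven, with a summed level of 128 CPM in control replicate 3, 68.0 CPM in Pax7-CreERT replicate 3 and 12.1 to 14.4 CPM in the other 4. Cells of muscle were present in every library: the satellite cell gene Pax7 lay between 10.9 and 21.6 CPM and the endothelial gene Pecam1 between 1943 and 2645 CPM. Macrophage markers were a small part of each library's CPM. Csf1r lay at 18.5 to 37.6 CPM and Adgre1, which encodes F4/80, at 2.85 to 5.18 CPM. Other macrophage genes were brighter, with Lyz2 at 221 to 517 CPM, and 23 pan-macrophage genes summed to 699 to 1621 CPM. In a bulk preparation fewer cells of a type and less RNA per cell cannot be told apart.

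None of the 9 resident macrophage genes passed the limma test between genotypes, and most of them were high in the same libraries, 1 of each genotype. Control replicate 3 and Pax7-CreERT replicate 1 were the 2 highest libraries for 7 of the 9 genes: Folr2, Lyve1, Cd163, Mrc1, F13a1, Cbr2 and Maf. The same 2 libraries were the highest for 7.11% of the 14763 genes tested. This pattern was seen in the values and is a description, without a test. Stab1 had other libraries highest, and Gas6 was highest in control replicate 3 and next in Pax7-CreERT replicate 2.

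Lyve1, the hyaluronan receptor (chromosome 7, 110850607 to 110862953), measured 69.4, 41.8 and 39.1 CPM in Pax7-CreERT replicates 1, 2 and 3 and 37.1, 39.1 and 97.2 CPM in control replicates 1, 2 and 3. The other 4 libraries lay between 37.1 and 41.8 CPM, and the 2 high ones stood 1 in each group, so the groups overlapped across their whole range. Means were 50.1 ± 16.8 and 57.8 ± 34.1 CPM (SD, n = 3 each), and the log2 fold change, Pax7-CreERT minus control on log2(CPM + 1), was -0.10 (SE 0.35, limma adjusted p = 0.976). Control replicate 3 was 2.49 times the next control, and Pax7-CreERT replicate 1 was 1.66 times the next library of its genotype. These steps were far above the counting SD of Lyve1, which was at most 7.22% in any library.

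Cd163, the haemoglobin scavenger receptor (chromosome 6, 124304651 to 124330527), measured 55.3, 34.3 and 29.9 CPM with Cre and 26.8, 36.5 and 77.7 CPM in the controls. Its means were 39.8 ± 13.6 and 47.0 ± 27.0 CPM (SD, n = 3 each) and the log2 fold change was -0.14 (SE 0.35, limma adjusted p = 0.966). Lyve1 and Cd163 were the 2 genes of the set with a log2 fold change below 0, and both turned above 0 when control replicate 3 was left out (0.34 and 0.29). The table also lists Gm52877, a gene on the opposite strand within the Cd163 span, at 15.8, 11.1 and 11.2 CPM with Cre and 9.45, 8.74 and 22.7 CPM in the controls. The library kit keeps strand, but how reads were counted is not given in the sources used here, so reads of the overlapping genes cannot be told apart with certainty.

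Mrc1, the mannose receptor (chromosome 2, 14229414 to 14332023), measured 73.4, 42.7 and 45.2 CPM with Cre and 35.3, 32.2 and 82.9 CPM in the controls. Every Pax7-CreERT library lay above controls 1 and 2 and below control replicate 3. Mrc1 averaged 53.7 ± 17.0 and 50.1 ± 28.4 CPM (SD, n = 3 each) and the log2 fold change was 0.19 (SE 0.33, limma adjusted p = 0.952). Folr2, the folate receptor (chromosome 7, 101839988 to 101857190), was the faintest of the 9 in CPM, at 14.4, 10.0 and 6.51 CPM with Cre and 6.85, 8.76 and 13.6 CPM in the controls. Its counting SD reached 17.7% in 1 library. It was the 1 receptor gene of the shared pattern for which Pax7-CreERT replicate 1 was above control replicate 3, and its log2 fold change was 0.06 (SE 0.30, limma adjusted p = 0.980).

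The enzyme and secreted-enzyme genes had the widest swings. F13a1 (chromosome 13, 36867178 to 37050244) measured 80.1, 50.1 and 51.9 CPM with Cre and 35.8, 44.5 and 112 CPM in the controls, with a log2 fold change of 0.07 (SE 0.36, limma adjusted p = 0.980). Cbr2 (chromosome 11, 120729485 to 120732021) measured 20.8, 15.3 and 18.5 CPM with Cre and 9.70, 9.83 and 39.7 CPM in the controls. Its highest library was 4.10 times its lowest, and 2.39% of all genes tested had a wider range of log2(CPM + 1). Control replicate 3 alone set the Cbr2 comparison: the group averages were 18.2 ± 2.78 and 19.7 ± 17.3 CPM (SD, n = 3 each), while controls 1 and 2 lay below all 3 Pax7-CreERT libraries. The log2 fold change of Cbr2 was 0.18 with all libraries (SE 0.44, limma adjusted p = 0.965) and 0.83 without control replicate 3 (adjusted p = 0.495).

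Maf (chromosome 8, 115703253 to 115706894) measured 67.7, 48.2 and 52.7 CPM with Cre and 32.6, 40.8 and 67.3 CPM in the controls. It shared the 2 high libraries with the receptors, but here the high control and the high Pax7-CreERT library were level. Its log2 fold change was 0.31 (SE 0.24, limma adjusted p = 0.899).

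Stab1 and Gas6 had a different order of libraries. Stab1, the scavenger receptor stabilin-1 (chromosome 14, 31139017 to 31168641), measured 40.2, 41.2 and 27.4 CPM with Cre and 26.6, 26.3 and 26.0 CPM in the controls. It was not high in control replicate 3, its lowest library, and it was the 1 gene of the 9 whose groups did not overlap in CPM. Its means were 36.2 ± 7.68 and 26.3 ± 0.312 CPM (SD, n = 3 each). The difference on the log2 scale was 0.43 (SE 0.17, 95% limits 0.04 and 0.82), with an unadjusted p of 0.0349 in limma and an adjusted p of 0.891. By exact permutation, 2-sided, p was 0.1, the smallest that 3 libraries against 3 allow. The gap between the lowest Pax7-CreERT library and the highest control was 0.796 CPM, below the counting SDs of those libraries (2.36 and 2.11 CPM). The table also lists Nt5dc2, on the opposite strand and overlapping the Stab1 span, at 2.10, 3.01 and 1.52 CPM with Cre and 1.33, 1.63 and 3.39 CPM in the controls. These levels exceed that gap, and, as for Cd163, reads of the overlapping genes cannot be told apart with certainty. Gas6, the TAM receptor ligand (chromosome 8, 13465374 to 13494535), was the most even, at 239, 245 and 218 CPM with Cre and 200, 179 and 259 CPM in the controls. Its highest library was 1.45 times its lowest, and its log2 fold change was 0.16 (SE 0.16, limma adjusted p = 0.916).

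**Figure D1:**
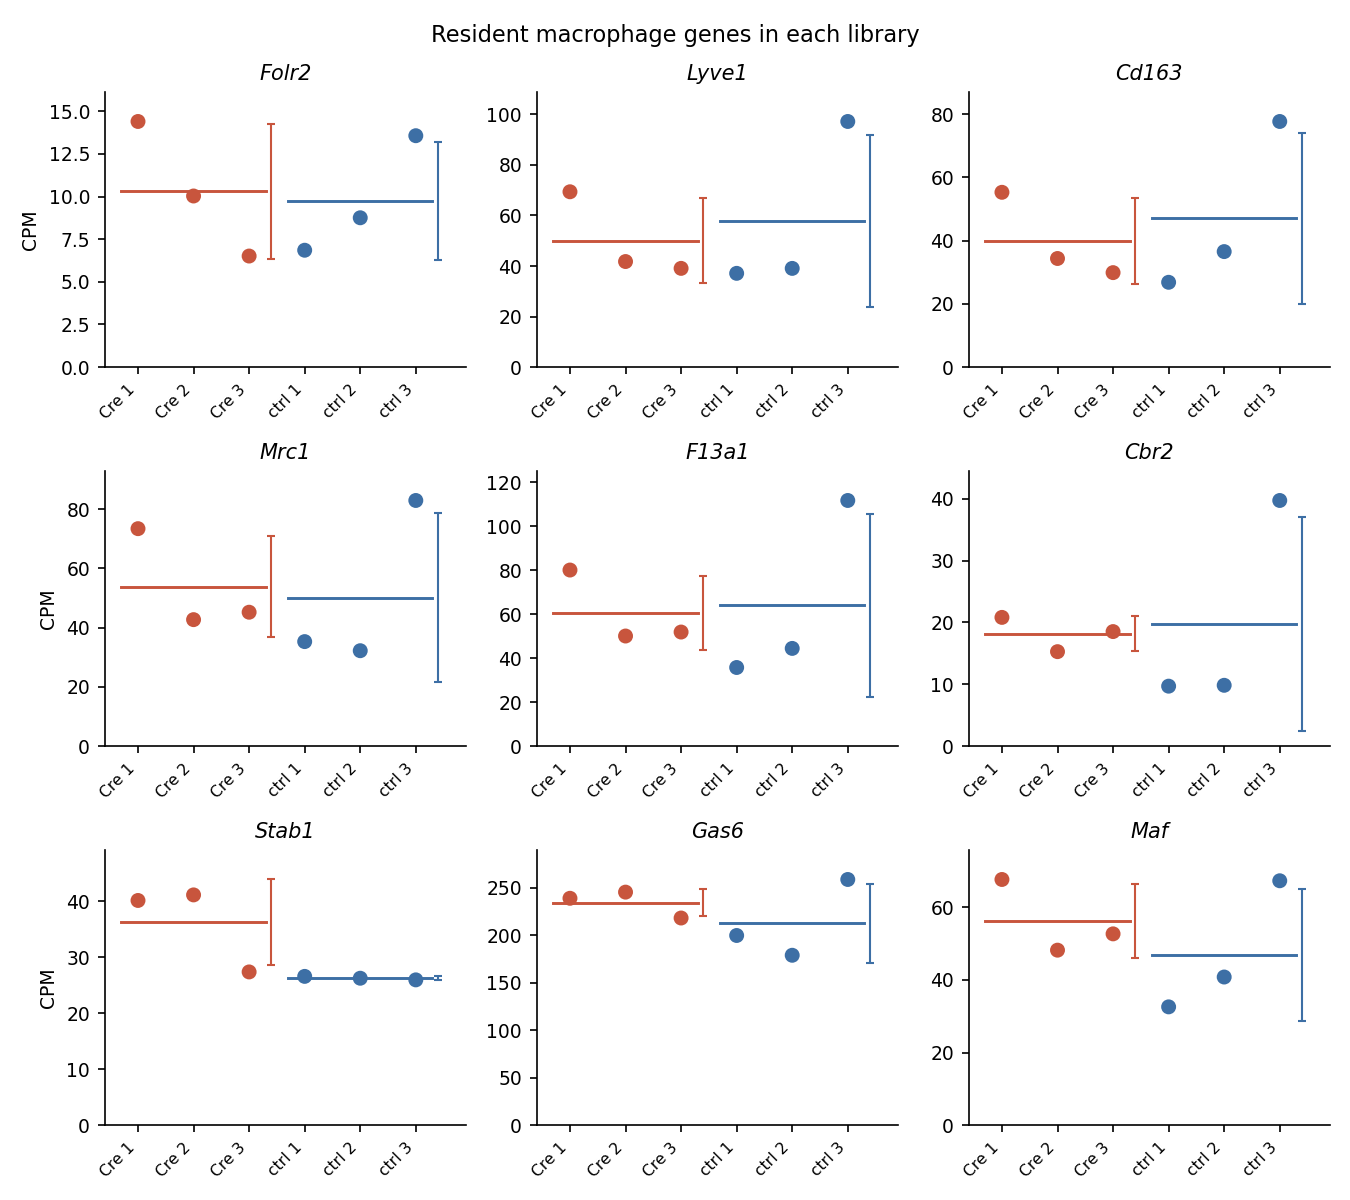
CPM of each of the 9 genes in each library (Cre, Pax7-CreERT replicates 1 to 3, red; ctrl, control replicates 1 to 3, blue); lines are group means and the bars beside them SDs of 3 libraries. Cre 1 and ctrl 3 are the 2 highest points for 7 genes, while Stab1 is low in ctrl 3 and Gas6 varies least.

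Read across the set, 0 of 9 genes passed in limma at an adjusted p under 0.05, where 1 gene of 14763 did (0.00677%). That gene, Zfp697, is not among the 9 genes or the other gene lists described here. At an unadjusted p under 0.05 there was 1 of 9, Stab1, against 5.52% of all genes tested. The groups did not overlap for 1 of 9, against 11.0% of all genes. The log2 fold change was above 0 for 7 genes and below 0 for 2, with a median of 0.16, against a median of 0.09 over all genes tested, of which 68.0% were above 0. The split depended on the scale: in mean CPM, 5 genes were higher with Cre and 4 lower. F13a1 and Cbr2 were lower in mean CPM but above 0 on the log2 scale. With TMM factors, which rescale each library, the median of all genes was 0.003 and that of the 9 genes 0.06, with 5 above 0 and 4 below. The SEs of the 9 genes ran from 0.16 to 0.44, and the 95% intervals of Lyve1 (-0.88 to 0.67), Cd163 (-0.92 to 0.65) and Mrc1 (-0.56 to 0.94) include changes of either sign.

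The direction of the set turned on single libraries. Without control replicate 3 all 9 genes had log2 fold changes above 0 with a median of 0.42, against 0.04 over all genes tested. An unadjusted limma p under 0.05 was seen for 6 of them (Mrc1, F13a1, Cbr2, Stab1, Gas6 and Maf). Over all genes tested in that fit it was seen for 947 of 14619. Of the 9 genes, 0 passed after adjustment (lowest adjusted p = 0.495). Without Pax7-CreERT replicate 1, 4 genes were above 0 and 5 below, with a median of -0.05. Without control replicate 1 the median was -0.14 and without control replicate 2 it was -0.05. A further alternative, chosen after seeing the data, left out both Pax7-CreERT replicate 1 and control replicate 3. All 9 were then above 0 with a median of 0.33, against 0.04 over all genes tested. An unadjusted limma p under 0.05 was seen for 3 (Mrc1, Cbr2 and Maf), and for 679 of all 14311 genes tested. Of the 9 genes, 0 passed (lowest adjusted p = 0.793).

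**Figure D2:**
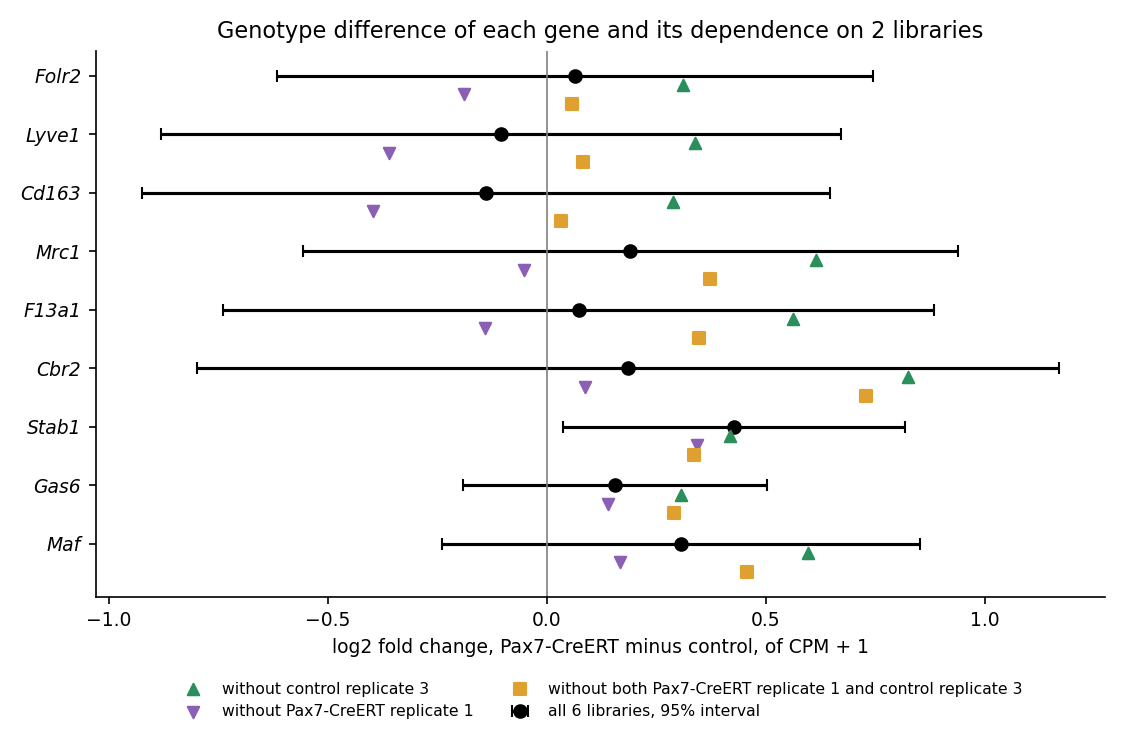
Log2 fold change of each gene, Pax7-CreERT minus control, with all 6 libraries (black, with limma 95% intervals) and without 1 or both of 2 libraries (coloured symbols, set slightly below each line). The points without control replicate 3 lie right of the line at 0 for all 9 genes, and those without Pax7-CreERT replicate 1 lie left of it for 5.

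The levels of the genes were next compared with each other per exon length, as CPM per kilobase of the exons that GENCODE vM21 lists within the deposited span. Gas6 stood apart, at a median of 89.6 CPM per kb over the 6 libraries (range 70.2 to 101). Lyve1 (15.4), Maf (13.9) and Cbr2 (13.7) followed, then F13a1 (7.57), Mrc1 (6.96), Cd163 (6.49) and Folr2 (6.09), and Stab1 was lowest at 2.62 CPM per kb. The range of Gas6 did not overlap that of Lyve1 (14.1 to 36.9), and that of Stab1 (2.52 to 4.0) did not overlap that of Folr2 (4.22 to 9.34). The ranges of the neighbours between these overlapped. Compared within each library, Lyve1 was above Maf and Cbr2 above F13a1 in all 6, and the other neighbours changed order between libraries.

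General macrophage transcripts were high in the same 2 libraries. The 23 pan-macrophage genes (Csf1r, Cd68, the C1q chains, Lyz2 and others) summed to 1229, 902 and 906 CPM with Cre and 699, 807 and 1621 CPM in the controls, with an exact permutation p of 1 between genotypes. For 15 of the 23, control replicate 3 and Pax7-CreERT replicate 1 were the 2 highest libraries. Lyz2, the lysozyme gene, measured 418, 306 and 281 CPM with Cre and 248, 221 and 517 CPM in the controls. C1qa, a chain of complement C1q, measured 159, 113 and 121 CPM against 68.0, 92.4 and 269 CPM. None of these genes passed in limma; 15 of the 22 tested had log2 fold changes above 0 and 7 below, 0 had an unadjusted p under 0.05, and the median was 0.04.

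Each resident gene was therefore also expressed as a percentage of the pan-macrophage sum of its own library. On this scale 7 of the 9 genes varied less between libraries than in CPM. These were the same 7 genes that were highest in control replicate 3 and Pax7-CreERT replicate 1. The sum was highest in that pair too, so dividing by it narrows such genes in part by construction. The same count over all genes tested was not made. Lyve1 was 5.64%, 4.63% and 4.31% of the sum with Cre and 5.31%, 4.84% and 6.0% in the controls, so that its highest library was 1.39 times its lowest, against 2.62 times in CPM. F13a1 went from 3.12 times to 1.35 times and Cd163 from 2.90 to 1.45. Stab1 and Gas6 spread more on this scale, 2.85 and 1.79 times, and both were lowest in control replicate 3 (1.60% and 16.0%). Maf was 5.51%, 5.35% and 5.82% with Cre and 4.66%, 5.06% and 4.16% in the controls. Like Stab1 and Gas6, Maf was lowest in control replicate 3, which was its second highest library in CPM. It was the 1 gene of 9 whose groups did not overlap, against 2.22% of all genes tested on this scale and 11.0% in CPM. The 2.22% covers all genes, whatever their relation to the sum, and is no rate for genes that follow the sum. The Maf means were 5.56% ± 0.240 and 4.63% ± 0.452 (SD, n = 3 each; exact 2-sided permutation p = 0.1, the smallest possible), and 9 such comparisons were made. The exact permutation p of the other 8 genes ran from 0.2 to 0.8, and the ratio of group means ran from 0.882 (Cd163) to 1.25 (Stab1). The Stab1 value turned on single libraries: its log2 ratio was 0.33 with all 6, 0.04 without control replicate 3, 0.12 without Pax7-CreERT replicate 2 and 0.58 without control replicate 1. The sum leans on Lyz2 and the C1q genes. With Csf1r and Adgre1 as the denominator, the Maf log2 ratio of group means was 0.38 in place of 0.27, again with an exact permutation p of 0.1.

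**Figure D3:**
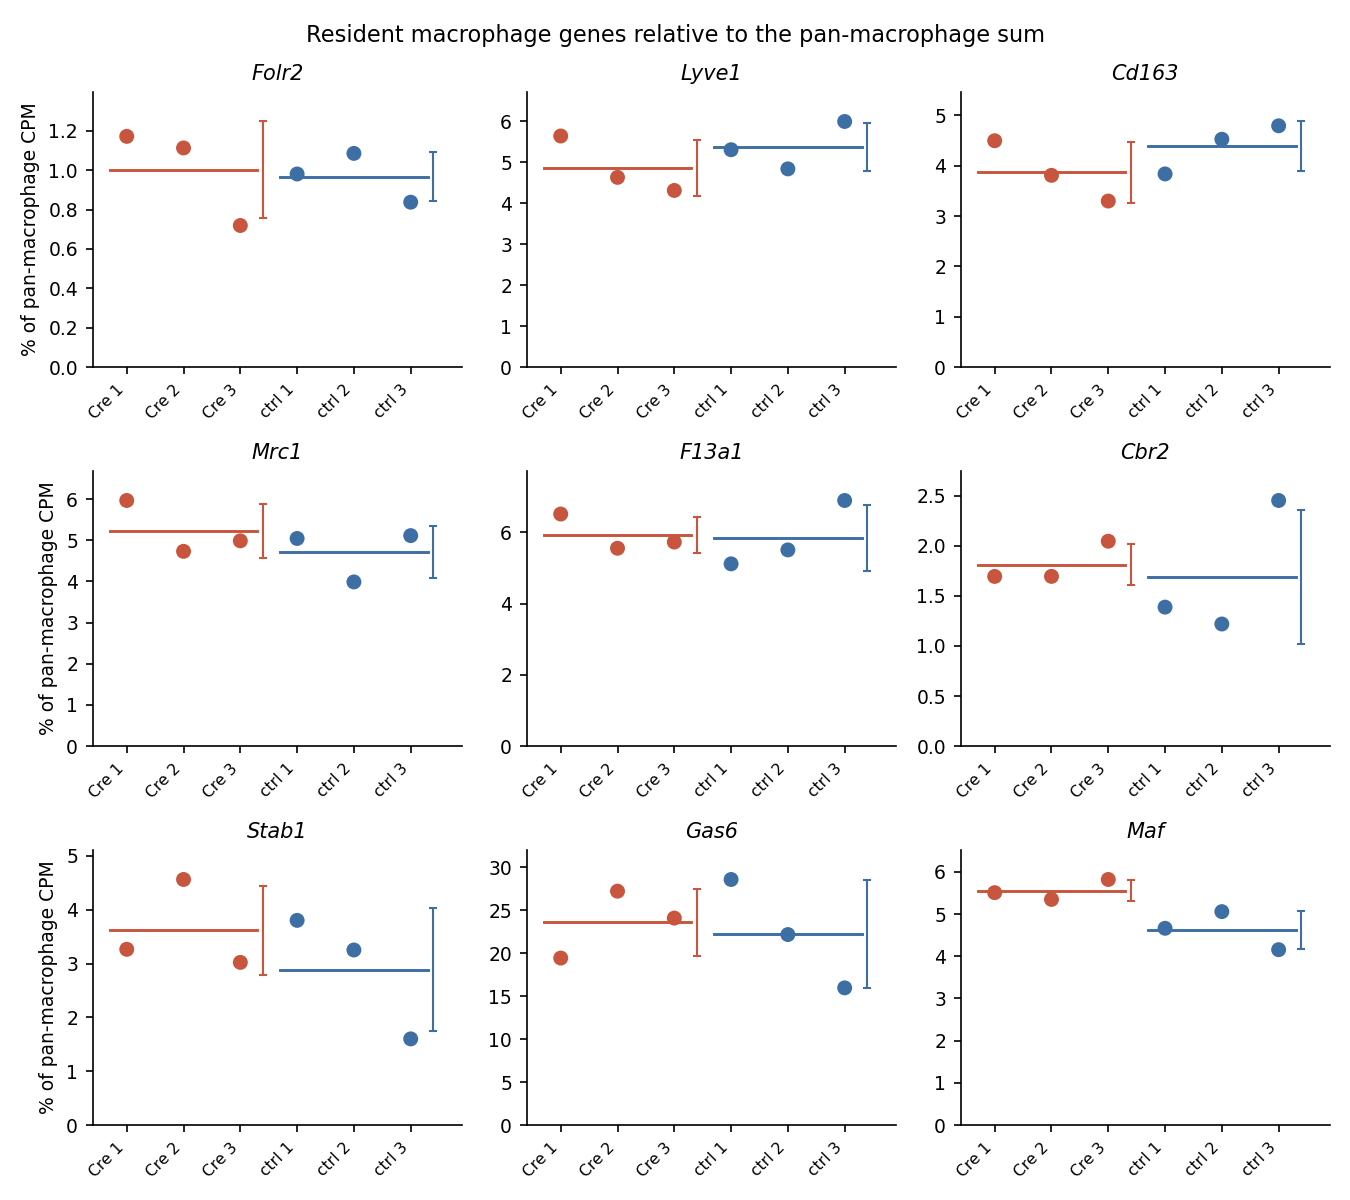
Each gene's CPM as a percentage of the summed CPM of 23 pan-macrophage genes in the same library (Cre, Pax7-CreERT, red; ctrl, control, blue; lines are means and bars SDs of 3 libraries). The highest point is 1.39 times the lowest for Lyve1, 1.5 times for Mrc1 and 1.35 times for F13a1, and the 3 red points of Maf lie above its 3 blue points.

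Other genes known from tissue-resident macrophages shared the 2 high libraries in part. Of 28 further genes all were in the table and 25 were tested; 0 passed in limma in either direction, 1 had an unadjusted p under 0.05, and 16 had log2 fold changes above 0 and 9 below, with a median of 0.11. Pax7-CreERT replicate 1 and control replicate 3 were the 2 highest libraries for 14 of the 28. Among them, Cd209f, a C-type lectin gene named after its values were seen, measured 11.0, 4.12 and 4.07 CPM with Cre and 2.84, 3.37 and 15.3 CPM in the controls. Igf1, the insulin-like growth factor gene that stromal cells also express, had the smallest p of this list. It measured 136, 104 and 76.1 CPM with Cre and 47.3, 56.2 and 78.0 CPM in the controls with a log2 fold change of 0.78 (SE 0.23), and its groups overlapped by 1 library each. Its p in limma was 0.00723 unadjusted and 0.891 adjusted. The chemokine genes Pf4 (5.07 ± 2.34 against 2.70 ± 0.922 CPM) and Ccl24 (2.26 ± 0.990 against 1.22 ± 0.676 CPM; SD, n = 3 each) had adjusted p = 0.896 in limma.

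The receptors that bind Gas6 did not pass either. All 4 other genes of the TAM axis were tested. Mertk, the receptor typical of macrophages, measured 65.8, 66.9 and 69.4 CPM with Cre and 54.2, 64.1 and 62.2 CPM in the controls (log2 fold change 0.16, SE 0.13, limma adjusted p = 0.899). Its groups did not overlap, as for 11.0% of all genes tested, and the nearest libraries stood close, at 65.8 and 64.1 CPM. Mertk was even over all 6 libraries, like Gas6. Axl, a receptor also of stromal and vascular cells, measured 101, 62.3 and 51.1 CPM against 54.8, 53.5 and 75.5 CPM, with Pax7-CreERT replicate 1 and control replicate 3 highest. Tyro3 stayed at 0.814 to 2.29 CPM, and the second ligand gene Pros1 at 142 to 165 CPM.

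Around Cd163, the 15 genes of haemoglobin and iron handling summed to 1555, 1191 and 1460 CPM with Cre and 1403, 1286 and 2413 CPM in the controls. The sum had the same 2 highest libraries as Cd163, control replicate 3 and then Pax7-CreERT replicate 1, but only 2 of the 15 genes had that pair on their own. Blvrb, a biliverdin reductase gene, measured 21.6, 13.3 and 23.2 CPM with Cre and 30.3, 18.9 and 73.8 CPM in the controls. Hp, which encodes haptoglobin, measured 27.8, 22.4 and 18.3 CPM against 24.6, 29.0 and 49.3 CPM. Ftl1, a ferritin chain, measured 390, 339 and 496 CPM against 465, 379 and 1215 CPM. Control replicate 3, the library richest in haemoglobin RNA, was highest for these 3, and Pax7-CreERT replicate 1, the second highest for Cd163 with 2.72% haemoglobin CPM, was not second for any of them. Lrp1, a receptor for haemopexin-haem complexes, was lowest in control replicate 3, at 346, 175 and 162 CPM with Cre and 185, 159 and 148 CPM in the controls. Hmox1, which encodes the haem-degrading enzyme haem oxygenase 1, measured 37.3, 21.9 and 44.4 CPM against 27.9, 30.6 and 106 CPM. Of 13 tested genes of this list 0 passed in limma, 0 had an unadjusted p under 0.05, and the median log2 fold change was 0.02. The part of red cell RNA in the Cd163 values was not tested.

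The 7 Maf partners and relatives in the table had a median log2 fold change of 0.09, and 0 passed in limma or had an unadjusted p under 0.05. Of the growth factor genes that maintain macrophages, Csf1 lay between 80.1 and 112 CPM and Il34 between 6.66 and 13.5 CPM. Of 15 genes of CSF1 and alternative activation signalling 10 had log2 fold changes above 0 and 5 below, with a median of 0.02, and 0 passed or had an unadjusted p under 0.05. The other scavenger and lectin receptors had 0 of 9 tested genes passing or with an unadjusted p under 0.05, and a median of 0.12. The clotting factor XIII partners had 0 of 8, and a median of -0.10.

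Genes of other macrophage states were counted in the same way. Of 16 inflammatory monocyte genes, 4 had the same 2 highest libraries, 8 had log2 fold changes above 0 and 8 below, and 0 passed in limma. Fn1, a fibronectin gene that stromal cells also express, measured 98.1 ± 46.0 against 54.5 ± 10.1 CPM and the chitinase-like gene Chil3 3.80 ± 1.23 against 7.01 ± 2.26 CPM (SD, n = 3 each); both had an unadjusted p under 0.05 and an adjusted p of 0.891. Of 12 lipid-associated genes 2 had the same 2 highest libraries, 6 were above 0 and 6 below, and 0 passed. Lpl, the lipoprotein lipase gene, which muscle and fat cells also express, measured 667, 525 and 872 CPM with Cre and 1210, 1508 and 984 CPM in the controls with a log2 fold change of -0.85 (SE 0.23). Its p in limma was 0.00372 unadjusted and 0.891 adjusted. Gpnmb, a glycoprotein gene of lipid-laden macrophages, measured 30.8 ± 11.6 against 56.9 ± 30.6 CPM, with an unadjusted p of 0.0402 in limma (adjusted p = 0.891).

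Markers of other cells that can express some of these genes were set beside them. Fibro-adipogenic progenitor markers can accompany Gas6 and Igf1. They summed to 7415, 4340 and 3857 CPM with Cre and 4046, 3969 and 5961 CPM in the controls. This sum too was highest in Pax7-CreERT replicate 1 and control replicate 3, and 6 of the 11 genes had that pair as the 2 highest, in either order. Dcn, the decorin gene, measured 2486, 1235 and 1358 CPM against 1445, 1291 and 2545 CPM. Gsn, the gelsolin gene, measured 2087, 1030 and 957 CPM against 1074, 961 and 1699 CPM. The genes of smallest p in this list were those of the matrix. Col1a1, a type I collagen chain, measured 224, 111 and 56.6 CPM with Cre and 32.6, 52.5 and 34.8 CPM in the controls (log2 fold change 1.497, SE 0.40, limma adjusted p = 0.891). Its groups did not overlap, as for 11.0% of all genes tested, and the nearest libraries stood at 56.6 and 52.5 CPM. Col3a1, the type III collagen gene, measured 815, 535 and 189 CPM against 149, 187 and 234 CPM, and Lum, the lumican gene, 115, 67.9 and 42.7 CPM against 40.6, 34.4 and 48.4 CPM; the groups of both overlapped. Gas6 was second highest in Pax7-CreERT replicate 2, unlike the progenitor sum. Lymphatic endothelial markers, which can accompany Lyve1, summed to 1029, 907 and 822 CPM against 799, 824 and 776 CPM. Their sum was lowest in control replicate 3, where Lyve1 was highest. That sum leans on Nrp2, at 411, 466 and 406 CPM with Cre and 367, 445 and 313 CPM in the controls. Mmrn1, the next most abundant, measured 241, 144 and 150 CPM against 180, 121 and 195 CPM. For 2 of the 8 genes, Mmrn1 among them, Pax7-CreERT replicate 1 and control replicate 3 were the 2 highest libraries. Prox1, the defining lymphatic transcription factor, measured 27.8 CPM in control replicate 3 against 22.1 to 39.6 CPM in the other libraries. Blood endothelial markers, which can accompany Stab1, summed to 5349 CPM in control replicate 3 and to 5733 to 7225 CPM in the other 5; 0 of the 11 genes had Pax7-CreERT replicate 1 and control replicate 3 as the 2 highest. MHC class II and dendritic cell genes were highest in control replicate 3 and Pax7-CreERT replicate 3 (1135 and 833 CPM), another pair than the resident genes. Platelet markers, which can accompany F13a1 and Pf4, summed to 68.9 to 151 CPM and were highest in Pax7-CreERT replicate 3. Satellite cell markers were lowest in control replicate 3 (153 CPM, against 171 to 209 CPM). Over these lists and those of erythroid cells, neutrophils, mast cells and lymphocytes, 0 genes passed in limma. At an unadjusted p under 0.05 there were 4 of 11 progenitor and 1 of 8 lymphatic markers higher, 1 of 8 erythroid and 1 of 9 neutrophil genes lower, and 0 of the endothelial, dendritic cell, platelet, mast cell, lymphocyte and satellite cell markers. The medians of the log2 fold changes were 0.33 for progenitor, 0.19 for lymphatic, 0.05 for blood endothelial, 0.19 for dendritic cell, -0.29 for platelet, -0.91 for erythroid, -0.43 for neutrophil, 0.54 for mast cell, -0.18 for lymphocyte and 0.04 for satellite cell lists. The part of cell mixture in the resident gene values was not tested.

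**Figure D4:**
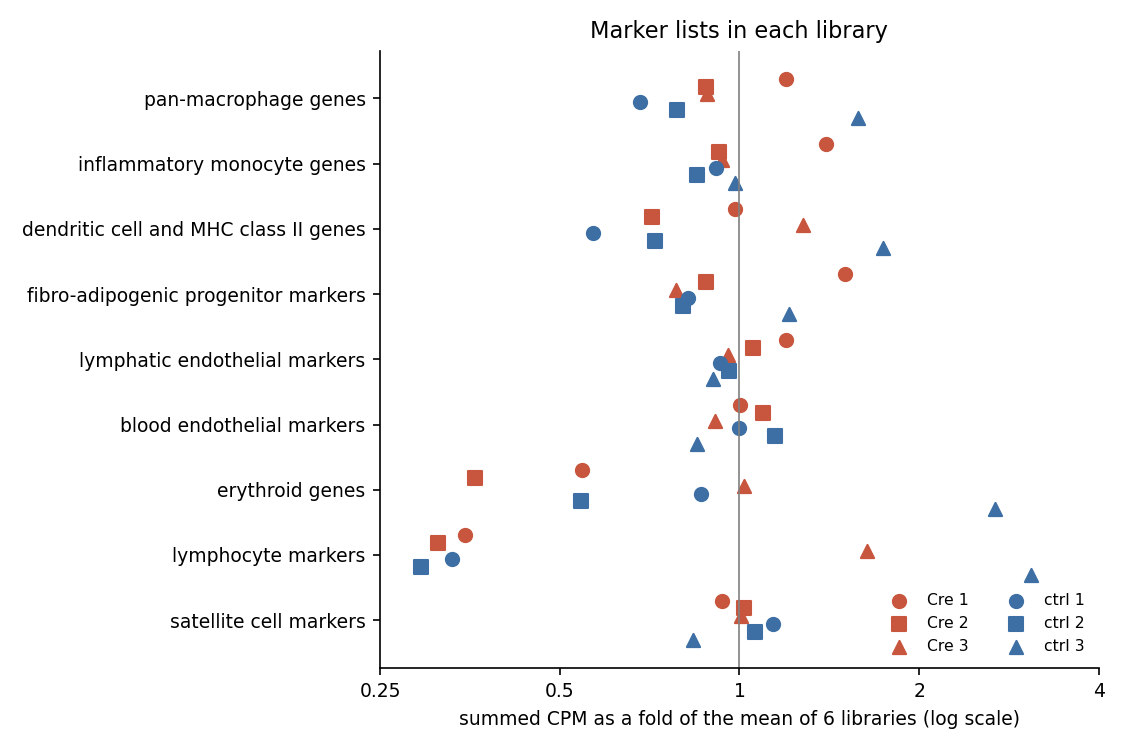
Summed CPM of marker lists in each library as a fold of the mean of the 6 libraries, on a log scale (Cre, Pax7-CreERT, red; ctrl, control, blue). Pan-macrophage genes and fibro-adipogenic progenitor markers have Cre 1 and ctrl 3 as their highest points, whereas lymphocyte and MHC class II lists have Cre 3 and ctrl 3.

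The genes whose values ran most nearly like the set were found by the root mean square difference, over the 6 libraries, from the median profile of the 9 genes on the centred log2(CPM + 1) scale. That profile stood at 0.44, -0.14 and -0.15 with Cre and -0.46, -0.31 and 0.75 in the controls. Among 970 genes of at least 5 CPM with as wide a range, the 8 nearest were Gm52877 (0.10), Ptges (0.10), Lyz2 (0.11), Rai2 (0.11), Csf2ra (0.13), Entpd2 (0.13), Fcgr3 (0.13) and Pirb (0.14). Gm52877 is the gene within Cd163 described above. Lyz2, Csf2ra (a subunit of the GM-CSF receptor), Fcgr3 (an Fc receptor for IgG) and Pirb (an inhibitory immunoglobulin-like receptor) are myeloid genes, and Ptges encodes a prostaglandin E synthase. Csf2ra measured 14.4, 8.01 and 9.16 CPM with Cre and 8.19, 8.35 and 20.7 CPM in the controls. Within the set, F13a1 and Lyve1 lay closest to the median profile (0.12 each) and Stab1 farthest from it (0.47).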

How the data were processed

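Trizol RNA of muscle mononuclear cells was made into strand-specific SureSelect libraries, per the labels' protocols. The authors deposited 1 table of CPM for 17030 genes, with 0.0001 added to each value, which was subtracted here. The submitters' processing notes name Partek, DESeq2 and mm10 without saying what each did; the aligner, counting rule and annotation are not given in the sources used here. Per library, 92.8% to 93.9% of values at or below 20 reads were whole within 0.05 read, below the 95% required to recover counts, so no count test was run. The 14763 genes that reached 1 CPM in 3 or more libraries were compared with limma 3.58.1 (R 4.3.3, mean-variance trend) on log2(CPM + 1), with Benjamini-Hochberg adjustment over all of them. The constant of 1 understates changes of low genes. The fit was checked on simulated data. Deposited ends were reduced by 1 base. The labels do not pair mice, and the p-values measure the spread between these samples.

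The 9 genes and all gene lists were chosen with earlier results of these data known. The naming rule for the other lists was the 3 genes of smallest p and the 2 most abundant; not all of these are printed, and Csf1r, Adgre1, Cd68, Hmox1, Csf1, Il34, Pax7 and Cd209f fall outside it and were chosen after their values were seen. The alternatives were TMM factors (trimmed mean of M values, computed in R from the CPM), leaving out haemoglobin genes, constants of 0.25 and 4, no filter, array weights, and leaving out each library.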

Additional observations from a re-analysis of the deposited data

How the results depend on the processing

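None of the 9 genes passed at an adjusted p under 0.05 in limma under any of the 13 alternatives. The count of passing genes in the whole table was 1 with all libraries, 2 with no filter on low values, 2 without both Pax7-CreERT replicate 1 and control replicate 3 (added after seeing the data), and 0 to 1 when each library was left out. The median log2 fold change of the 9 genes was 0.16 and ran from -0.14 to 0.42 over the libraries left out. Stab1, Gas6 and Maf kept a fold change above 0 under all alternatives, and Stab1 kept an unadjusted p under 0.05 in 6 of the 13. With TMM factors the sign turned for Folr2 (-0.021) and F13a1 (-0.019). It turned for Lyve1 (0.21) and Cd163 (0.13) with array weights, and for Lyve1 (0.08) and Cd163 (0.03) without both named libraries. Over the libraries left out one at a time, the log2 fold changes ran from -0.19 to 0.33 for Folr2, -0.36 to 0.34 for Lyve1, -0.46 to 0.29 for Cd163, -0.054 to 0.62 for Mrc1, -0.25 to 0.56 for F13a1 and -0.14 to 0.83 for Cbr2. The log2 ratios of the percentages of the pan-macrophage sum ran from -0.079 to 0.24 for Folr2, -0.064 to 0.16 for F13a1, -0.084 to 0.48 for Cbr2, -0.11 to 0.31 for Gas6 and 0.036 to 0.58 for Stab1. Changes near 0 are within their SEs, and the cause of each turn was not tested. No paired analysis was possible because the labels give no replicate numbers and the titles do not tie mice across genotypes. Depth limits Folr2 most, with 32.0 to 137 estimated reads per library.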
